A study of Mus musculus with 6 samples.

Results

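The hedgehog pathway of peripheral nerve was examined in sciatic nerves of mice in which Schwann cells lack the ubiquitin ligase Rnf40. Its members were taken by gene symbol from the count tables of 6 RNA-Seq libraries and comprised 9 of the 24015 genes counted. They were the ligands Dhh and Shh, the receptor Ptch1, the ligand-binding inhibitor Hhip, the signal transducer Smo, the inhibitor Sufu, and the transcription factors Gli1, Gli2 and Gli3.

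The study asked what loss of Rnf40, and of the histone mark that it places, does to Schwann cells during myelination. Control mice carried Rnf40 alleles flanked by loxP sites (Rnf40 fl/fl) and no Cre. Rnf40ΔSC mice carried the same floxed alleles together with a Dhh::Cre transgene, in which regulatory sequence of Dhh drives Cre in the Schwann cell lineage. Each genotype was represented by 3 libraries from postnatal day 14, and each library was prepared from a pool of 3 sciatic nerves. The strain was a mixed background, given as 129SvJ and C57Bl/6J in the sample labels and as C3H and C57Bl/6J in the methods. Since the Dhh::Cre transgene was present only in Rnf40ΔSC mice, effects of the transgene or of Cre and effects of the Rnf40 deletion cannot be told apart. The same holds for reads from any Dhh sequence that the transgene carries and reads from the endogenous gene.

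Schwann cells are the source of desert hedgehog (Dhh) in nerve, and the surrounding mesenchymal cells receive it. Binding of the ligand to Ptch1 relieves Smo from inhibition, Smo acts through the primary cilium against Sufu, and Gli factors then switch on targets such as Gli1, Ptch1 and Hhip, which for this reason serve as readouts of the pathway. In mice without Dhh the perineurium is thin and disorganised and the nerve is split into small fascicles.

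The libraries held 1317167, 1992622 and 2468765 reads on genes in control 1 to 3, and 2184268, 1459387 and 2186710 in Rnf40ΔSC 1 to 3. A single read therefore stood for between 0.405 and 0.759 CPM (counts per 1e6 reads). Counts are given below after scaling by TMM, which sets libraries to a common size through genes that vary little, and are called normalised counts. Sums over marker genes are given as TMM CPM, that is per 1e6 reads of the library size after this scaling. Genes with low counts were removed, the other 11371 were compared by the quasi-likelihood test of edgeR, and a gene was called when its Benjamini-Hochberg adjusted p over all of these genes was at most 0.05. The deleted gene itself gave 130.2, 126 and 142 normalised counts in control and 90.2, 90.4 and 94.2 in Rnf40ΔSC libraries. All 3 Rnf40ΔSC libraries lay below the control libraries, with a log2 fold change of -0.54 (SE 0.14, edgeR's adjusted p = 0.00242). Under total-count scaling this change was -0.27 and no longer called (edgeR's adjusted p = 0.120, range over all alternatives 0.00235 to 0.120).

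Of the 9 members, 8 passed the filter on low counts and 3 were called. Gli1 and Smo were lower and Sufu was higher in Rnf40ΔSC nerves, whereas Dhh, Ptch1, Hhip, Gli2 and Gli3 were not called. Among all genes tested 31.6% were called, 16.2% as lower and 15.4% as higher, so that 3 of 8 members is close to the share in the whole table. The libraries of the genotypes did not overlap for Dhh, Smo, Gli1 and Sufu, which is 4 of 8 members tested against 43.5% of all genes tested. By the limits that the study set for changed genes (a log2 fold change of at least 0.8 in size and a mean of at least 20 normalised counts in addition to the adjusted p), edgeR called none of the members, against 8.78% of all genes tested. The median log2 fold change of the 8 members was 0.15, compared with -0.0026 for all genes tested.

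**Figure D1:**
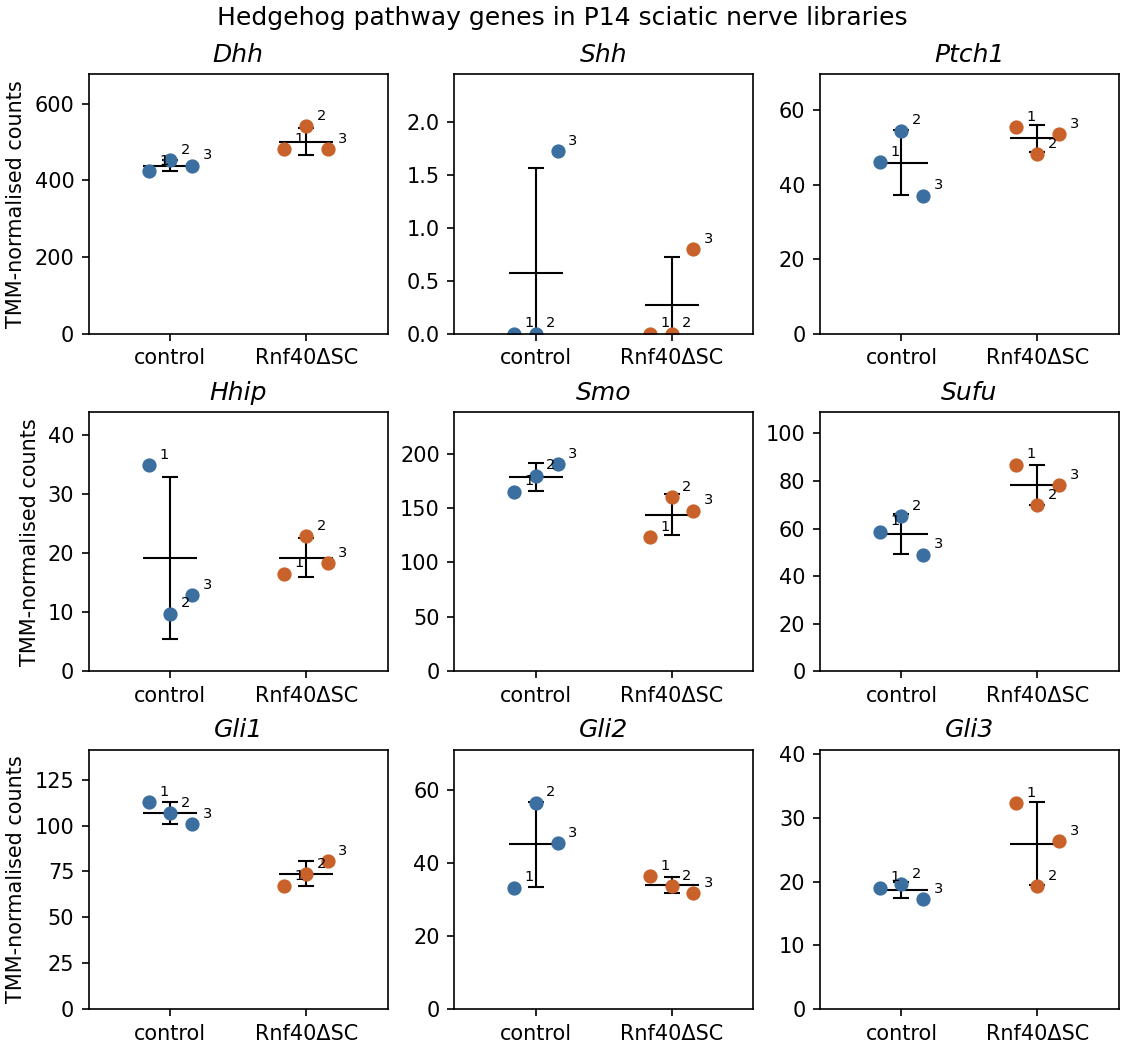
Normalised counts (TMM, vertical axes from 0) of the 9 members in each of the 3 control and 3 Rnf40ΔSC libraries, which are numbered. Horizontal bars give the mean and error bars the SD (n = 3); the Rnf40ΔSC libraries lie below all control libraries for Smo and Gli1 and above them for Dhh and Sufu.

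Among the ligands, Dhh was the most abundant gene of the group. The gene lies on the minus strand of chromosome 15 (chr15:98723462-98728971, mm9). Control libraries 1 to 3 held 424, 453 and 438 normalised counts of Dhh, and Rnf40ΔSC libraries 482, 541 and 480.4. All Rnf40ΔSC libraries were therefore slightly above all control libraries, by 1.14-fold in edgeR's fit (log2 fold change 0.19, SE 0.09, 95% interval -0.0015 to 0.38). This difference did not pass the threshold (edgeR's adjusted p = 0.125). Scaling by total counts gave Dhh a log2 fold change of 0.46, which was called (edgeR's adjusted p = 1.91e-04, range over all alternatives 1.91e-04 to 0.342).

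The choice of scaling bears on all members in the same way. Total-count scaling raised the median log2 fold change of all genes tested to 0.27, and the share of lower genes among those called fell from 51.2% to 18.9%. Relative to that median, the log2 fold change of Dhh was 0.19 under either scaling, that of Gli1 was -0.52 and that of Sufu 0.46. No member changed its sign with the scaling, but the set that passed the threshold under total-count scaling was Dhh, Gli3 and Sufu, each higher.

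**Figure D2:**
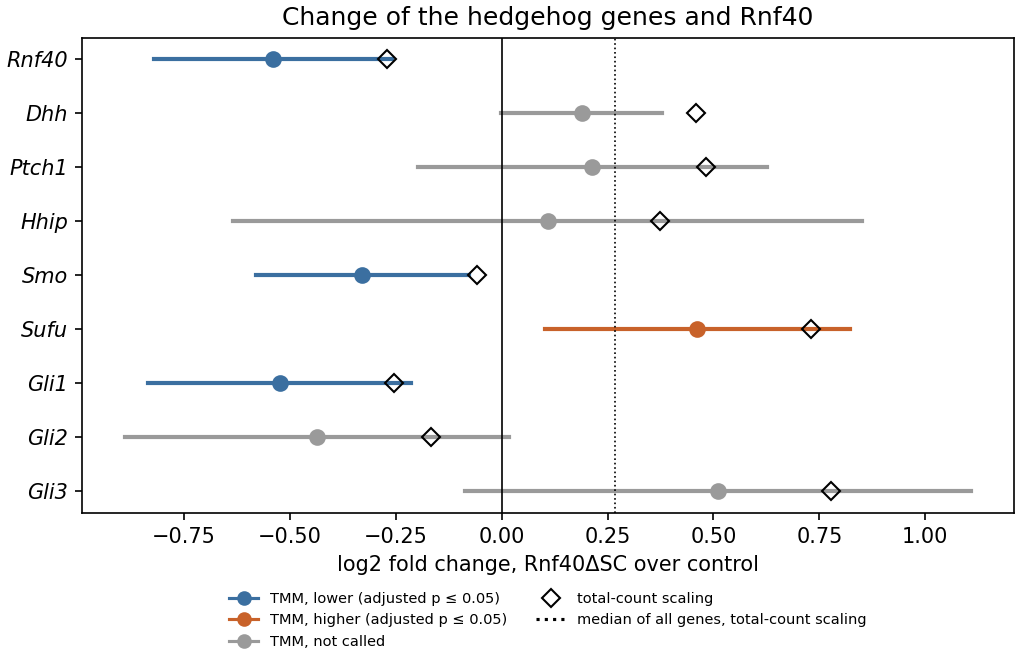
Log2 fold change of Rnf40 and of the 8 members tested (horizontal axis, Rnf40ΔSC over control) with 95% intervals from edgeR after TMM scaling (filled circles, coloured by call), and the same value after total-count scaling (open diamonds). The dotted line marks the median of all genes under total-count scaling, 0.27, and every diamond lies to the right of its circle by about this amount. The intervals of Rnf40, Smo, Sufu and Gli1 exclude 0.

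Shh, the ligand best known from neural tube and limb, was close to absent. Control library 3 held 2 reads and Rnf40ΔSC library 3 held 1, and the other 4 libraries held 0. In these libraries 3 reads corresponded to between 1.22 and 2.28 CPM, and expression of Shh under that level was not detectable. Shh was not tested for this reason. Ihh, the remaining ligand of the family, had at most 1 read per library and was likewise left untested.

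Sequences upstream of the start site are shown for the ligand Dhh and for Smo and Sufu, the called members for which a promoter sequence was at hand. Of the 9 members, 7 had an entry in the RefSeq promoter table for GRCm38.p6, and Gli1 and Shh had none. Each sequence holds the 250 bases that precede the start site, read 5′ to 3′ on the strand of the gene. Motif letters found on either strand are in capitals.
Dhh (chr15:98898541-98898790, minus strand): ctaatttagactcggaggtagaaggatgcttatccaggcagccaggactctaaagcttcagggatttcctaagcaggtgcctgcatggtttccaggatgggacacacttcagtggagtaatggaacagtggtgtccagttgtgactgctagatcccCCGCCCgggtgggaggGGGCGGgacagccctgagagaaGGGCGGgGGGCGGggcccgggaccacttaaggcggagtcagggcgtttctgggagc
Smo (chr6:29735247-29735496, plus strand): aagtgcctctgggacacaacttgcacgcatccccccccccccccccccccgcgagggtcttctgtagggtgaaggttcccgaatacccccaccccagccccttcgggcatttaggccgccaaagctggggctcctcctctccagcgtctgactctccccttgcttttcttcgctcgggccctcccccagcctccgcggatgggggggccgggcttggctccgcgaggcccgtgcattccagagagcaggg
Sufu (chr19:46396646-46396895, plus strand): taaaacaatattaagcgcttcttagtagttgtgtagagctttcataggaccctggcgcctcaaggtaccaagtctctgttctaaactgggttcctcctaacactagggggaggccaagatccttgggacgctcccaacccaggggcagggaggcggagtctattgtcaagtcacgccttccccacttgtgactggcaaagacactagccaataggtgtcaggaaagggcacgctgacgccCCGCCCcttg
Capitals mark the GC box GGGCGG, which Sp-type factors bind, or its reverse complement. It occurred 4 times before Dhh, at 94, 78, 56 and 49 bases before the start site, and once before Sufu, 10 bases before the start site, but not in the window of Smo. Of 32851 promoters in the table, 32.7% held it within the same 250 bases, compared with 6 of the 7 members present (Dhh, Ptch1, Gli2, Gli3, Hhip and Sufu). The 9 letters GACCACCCA of the Gli consensus were present in none of the 7 members and in 0.225% of all promoters. The Egr motif GCGGGGGCG was present before Gli2 and Hhip (2.57% of all promoters), and the Sox core ACAAAG before none of the members (16.5%). These matches describe the letters of the windows only.

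Turning to the receiving side, Ptch1 encodes the receptor of the ligands and is itself induced by the pathway. Its normalised counts were 46.0, 54.5 and 37.0 in control and 55.5, 48.2 and 53.5 in Rnf40ΔSC libraries. The genotypes overlapped, and the log2 fold change was 0.21 (SE 0.20, 95% interval -0.20 to 0.63, edgeR's adjusted p = 0.459). Hhip, a membrane-bound inhibitor that sequesters the ligands, is also an induced gene. Control libraries held 34.9, 9.81 and 12.9 and Rnf40ΔSC libraries 16.6, 22.9 and 18.4 normalised counts of Hhip. The control libraries spanned the entire range of the Rnf40ΔSC libraries, and at 9 to 23 reads per library the 95% interval of its log2 fold change reached from -0.63 to 0.85.

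Smo, the membrane protein that passes the signal into the cell, was lower in Rnf40ΔSC nerves. On the plus strand of chromosome 6 (chr6:29685694-29711365, mm9), it gave 165, 179.8 and 190.2 normalised counts in control and 123, 160.3 and 148 in Rnf40ΔSC libraries. The lowest control library and the highest Rnf40ΔSC library were separated by less than the SD of either genotype. Its level in edgeR's fit was 1.26-fold lower (log2 fold change -0.33, SE 0.12, 95% interval -0.58 to -0.08, edgeR's adjusted p = 0.0393). This call was lost without control library 2 (edgeR's adjusted p = 0.0939), without control library 3 (0.184), without Rnf40ΔSC library 1 (0.266), with DESeq2 (0.154) and with total-count scaling (0.744), over a range of 0.0223 to 0.744.

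Sufu, which holds Gli proteins in the cytoplasm and restrains the pathway, was higher. The gene lies on the plus strand of chromosome 19 (chr19:46471386-46563294, mm9). Control libraries held 58.7, 65.4 and 49.1 normalised counts and Rnf40ΔSC libraries 86.9, 69.9 and 78.2. Rnf40ΔSC library 2 was closest to the controls, yet above all of them. The difference was 1.38-fold (log2 fold change 0.46, SE 0.18, 95% interval 0.10 to 0.82, edgeR's adjusted p = 0.0438). It was no longer called without control library 1 (edgeR's adjusted p = 0.0766), without control library 3 (0.242), without Rnf40ΔSC library 1 (0.162), with the replicate number as a block (0.0549) or with DESeq2 (0.152), over a range of 0.00110 to 0.242.

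Gli1 showed the largest change in size among the members called. This zinc finger activator is a direct target of the pathway, and its transcript is widely used as a measure of pathway activity. The gene lies on the minus strand of chromosome 10 (chr10:126766945-126778645, mm9), where exons of Arhgap9 overlap it on the opposite strand. With 18 reads over all 6 libraries, Arhgap9 was far below Gli1, although reads shared by both genes cannot be told apart unless the counting used strand, which the sources used here do not state. Normalised counts of Gli1 were 113, 107 and 101 in control and 67.1, 73.5 and 80.6 in Rnf40ΔSC libraries. Every Rnf40ΔSC library was lower than every control library, and the gap between the groups exceeded the SD of either (6.01 in control and 6.77 in Rnf40ΔSC). The log2 fold change was -0.52 (SE 0.15, 95% interval -0.83 to -0.21, edgeR's adjusted p = 0.00783), or 1.44-fold lower. Gli1 was the sole member that DESeq2 called as well (adjusted p in DESeq2 0.0450). Its call was lost without Rnf40ΔSC library 1 (log2 fold change -0.44, edgeR's adjusted p = 0.0555) and with total-count scaling (-0.25, edgeR's adjusted p = 0.195, range over all alternatives 0.00507 to 0.195).

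Gli2 and Gli3, which carry the signal as activator and mainly as repressor, were low and not called. Gli2 gave 33.3, 56.7 and 45.6 normalised counts in control and 36.4, 33.7 and 31.9 in Rnf40ΔSC libraries, with control library 1 inside the Rnf40ΔSC range (log2 fold change -0.44, SE 0.22, edgeR's adjusted p = 0.139). For Gli3 the values were 19.1, 19.6 and 17.2 in control and 32.3, 19.3 and 26.3 in Rnf40ΔSC libraries (log2 fold change 0.51, SE 0.29, edgeR's adjusted p = 0.193). Rnf40ΔSC library 2 lay among the controls, while the other 2 were above them.

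Levels can be compared between genes only per transcript length. Normalised counts were therefore divided by the union exon length of GENCODE vM1 to give RPKM (reads per kilobase of exon and 1e6 reads of the TMM-scaled library size). In control nerves Dhh was at 96.2 ± 3.22 RPKM (SD, n = 3), followed by Smo at 24.5 ± 1.73 and Gli1 at 14.6 ± 0.825. These 3 levels did not overlap each other or any other member in any library. Sufu (4.31 ± 0.613 RPKM), Ptch1 (3.62 ± 0.689), Gli2 (3.41 ± 0.880), Hhip (2.04 ± 1.45) and Gli3 (1.01 ± 0.0679) followed, each overlapping its neighbour in this order. The order of the members was the same in Rnf40ΔSC nerves, with Dhh at 110.0 ± 7.61, Smo at 19.7 ± 2.58 and Gli1 at 10.1 ± 0.928 RPKM. Gli2 and Hhip were the only neighbours whose Rnf40ΔSC libraries overlapped. At 0.332 RPKM, the highest library of Shh was below every library of every other member.

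Ratios of raw counts within a library depend on no scaling, and 6 of them were formed after the values of the members had been seen, so that they are given without a test. The ratio of Gli1 to Dhh was 0.266, 0.236 and 0.230 in control and 0.139, 0.136 and 0.168 in Rnf40ΔSC libraries. Relative to the ligand, Gli1 was thus lower in every Rnf40ΔSC library, at 0.605 of the control mean. Reads of Gli1 per read of Ptch1 numbered 2.45, 1.96 and 2.72 in control and 1.21, 1.52 and 1.51 in Rnf40ΔSC libraries, again without overlap. Ptch1 to Dhh differed little, at 0.104 ± 0.0182 in control and 0.105 ± 0.0141 in Rnf40ΔSC libraries (SD, n = 3). The ratio of Gli1 to Smo overlapped (0.529 to 0.683 in control and 0.459 to 0.546 in Rnf40ΔSC libraries).

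Dhh is made by Schwann cells, and it was therefore set against Sox10, a transcription factor that marks this lineage. Control libraries had 0.443, 0.430 and 0.404 reads of Dhh per read of Sox10, and Rnf40ΔSC libraries 0.766, 0.943 and 0.811. The mean ratio was 1.97 times that of control, and Sox10 itself fell from 1032 ± 66.1 to 598 ± 28.3 normalised counts (SD, n = 3; log2 fold change -0.79, edgeR's adjusted p = 8.80e-09) while Dhh did not fall. The rise of this ratio applies to the marker chosen. Of 10 Schwann lineage markers, 8 were lower and 2 higher, namely Egr2 (log2 fold change 0.36) and Foxd3 (0.90). The log2 fold change of Dhh (0.19) was smaller than either, and ratios of Dhh to other markers were not formed. Fewer cells of a type and less RNA per cell cannot be told apart from counts of whole nerve.

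**Figure D3:**
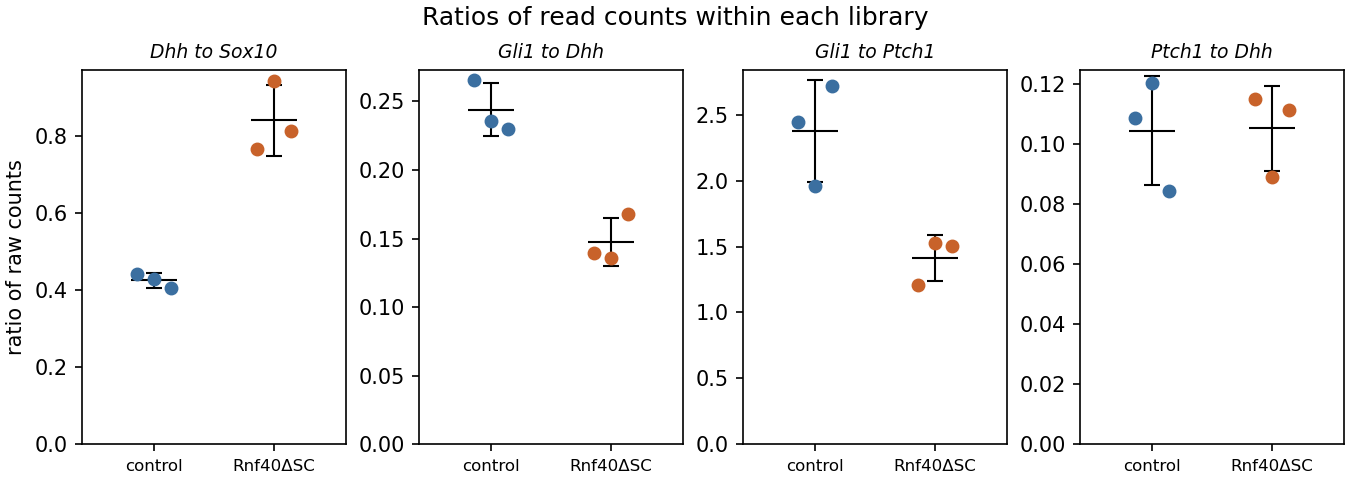
Ratios of raw read counts within each library (vertical axes from 0) in 3 control and 3 Rnf40ΔSC libraries; horizontal bars give the mean and error bars the SD (n = 3). Dhh to Sox10 is higher in every Rnf40ΔSC library, Gli1 to Dhh and Gli1 to Ptch1 are lower, and Ptch1 to Dhh overlaps.

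Other genes of the pathway were taken from 5 lists with 64 genes. Of these, 51 were tested, 9 were called lower and 9 higher in Rnf40ΔSC nerves, and their median log2 fold change was -0.07. Together 18 of 51 were called, against 31.6% of all genes tested. With total-count scaling the split was 2 lower and 17 higher, and none of the genes called by TMM changed its sign.

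Ligand processing and release was the list with the largest change. Scube1, a secreted protein of the Scube family that helps release lipid-modified hedgehog from cells, gave 214, 175 and 208 normalised counts in control and 52.2, 54.2 and 57.5 in Rnf40ΔSC libraries. The genotypes were far apart, at a 3.63-fold lower level in Rnf40ΔSC nerves (log2 fold change -1.86, SE 0.14, edgeR's adjusted p = 3.24e-13). Disp1, the transporter that exports the ligand from the producing cell, fell from 249.7 ± 14.4 to 179 ± 11.0 normalised counts (SD, n = 3; log2 fold change -0.48, SE 0.11, edgeR's adjusted p = 5.99e-04). The Disp1 call was lost with total-count scaling (edgeR's adjusted p = 0.119, range 3.09e-04 to 0.119). The other 5 genes of the list were too low to be tested, of which Hhat, the enzyme that attaches palmitate to the ligand, was the most abundant over all 6 libraries, though below Scube2 in control nerves, at 6.79 ± 2.62 and 7.11 ± 3.34 normalised counts (SD, n = 3).

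Among genes that help receive the ligand, Cdon and Gpc3 were lower. Cdon, a coreceptor, gave 168, 168 and 165 normalised counts in control and 116, 109.7 and 111 in Rnf40ΔSC libraries (log2 fold change -0.57, SE 0.13, edgeR's adjusted p = 4.72e-04). Gpc3, a glypican that competes with Ptch1 for ligand, fell from 1874 ± 148 to 1362 ± 52.0 (SD, n = 3; log2 fold change -0.46, SE 0.08, edgeR's adjusted p = 4.37e-05). Gas1, a further coreceptor and the most abundant gene not called, was at 219 ± 17.3 in control and 189 ± 25.1 normalised counts in Rnf40ΔSC nerves (SD, n = 3). With total-count scaling these calls were lost, at edgeR's adjusted p of 0.0523 for Cdon (range over all alternatives 2.63e-04 to 0.0523) and 0.0673 for Gpc3 (3.08e-06 to 0.0673).

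In signal transduction, 18 of 20 genes were tested, with 2 lower and 4 higher. The kinase gene Gsk3b gave 299, 299 and 263 normalised counts in control and 509, 568 and 468 in Rnf40ΔSC libraries (log2 fold change 0.85, SE 0.10, edgeR's adjusted p = 1.64e-08). Btrc, a substrate receptor of the ubiquitin ligase that acts on phosphorylated Gli2 and Gli3, gave 95.3, 108 and 102 in control and 197, 176 and 176 in Rnf40ΔSC libraries (log2 fold change 0.84, SE 0.13, edgeR's adjusted p = 2.32e-06). Both genes have many other substrates, beta-catenin among them. Gsk3a (log2 fold change 0.37, SE 0.11) and Fbxw11 (0.36, SE 0.13), their close relatives, were higher to a smaller extent. The call of Gsk3a was lost without control library 1 (edgeR's adjusted p = 0.0756), and that of Fbxw11 without control library 1 or 3 or Rnf40ΔSC library 1 or 2 and with DESeq2 (adjusted p up to 0.137 in edgeR). Lower genes were Evc2, a ciliary partner of Smo, at a log2 fold change of -0.59 (SE 0.12, edgeR's adjusted p = 1.42e-04), and Prkacb, a catalytic subunit of protein kinase A, at -0.31 (SE 0.11, edgeR's adjusted p = 0.0330). Prkacb was not called under 6 of 12 alternatives. Spop, the most abundant gene of this list not called, had a log2 fold change of -0.07 (SE 0.09).

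**Figure D4:**
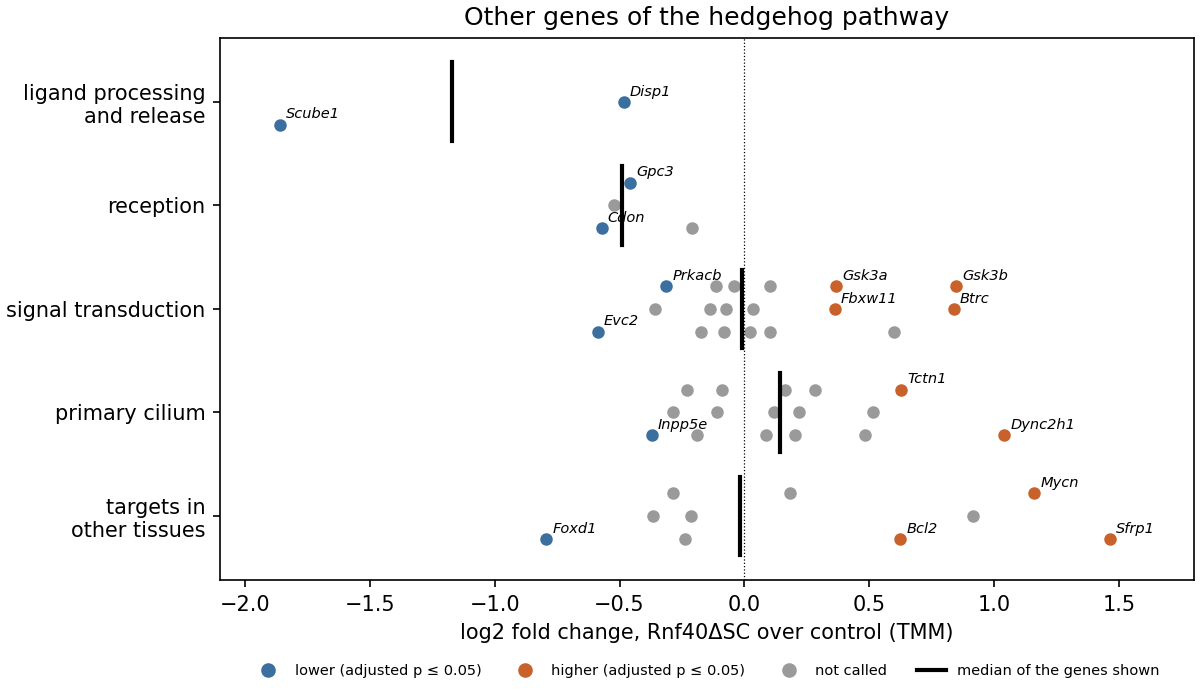
Log2 fold changes (horizontal axis, Rnf40ΔSC over control, TMM) of genes tested in the 5 other pathway lists, coloured by call at an adjusted p of at most 0.05 and named where called. Thick bars mark the median of the genes shown in each list; the genes called in ligand release and reception lie to the left of 0, while Btrc and Gsk3b lie near 0.85 in signal transduction.

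Vertebrate hedgehog signalling runs through the primary cilium, and all 16 genes listed for this organelle were tested. Of these, 3 were called (1 lower and 2 higher), against 31.6% of all genes tested. With total-count scaling 7 of the 16 were called, each higher, against 4646 of all 11371 genes tested. Dync2h1, the motor of retrograde transport in cilia, gave 12.7, 24.0 and 15.5 normalised counts in control and 41.4, 24.1 and 41.5 in Rnf40ΔSC libraries, so that control library 2 and Rnf40ΔSC library 2 nearly met (log2 fold change 1.04, SE 0.29, edgeR's adjusted p = 0.00486). Tctn1, of the transition zone, was higher (log2 fold change 0.63, SE 0.20) and Inpp5e, a phosphatase of the ciliary membrane, lower (-0.37, SE 0.13). The call of Tctn1 was lost under 4 and that of Inpp5e under 6 of 12 alternatives. Kif3a, the most abundant of the others, had a log2 fold change of 0.22 (SE 0.11, edgeR's adjusted p = 0.117).

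Genes that hedgehog induces in other tissues moved in both directions. Of 15 listed, 10 were tested, 1 was lower and 3 were higher, and the median log2 fold change was -0.02. Sfrp1, a secreted inhibitor of Wnt ligands, gave 291, 291 and 295 normalised counts in control and 789, 846 and 785 in Rnf40ΔSC libraries (log2 fold change 1.46, SE 0.09, edgeR's adjusted p = 2.25e-15). Mycn (log2 fold change 1.16, SE 0.31, edgeR's adjusted p = 0.00329) and the survival factor Bcl2 (0.62, SE 0.15, edgeR's adjusted p = 0.00128) were higher as well. The forkhead factor Foxd1 fell from 40.9 ± 7.36 to 22.9 ± 1.17 normalised counts (SD, n = 3; log2 fold change -0.79, SE 0.25, edgeR's adjusted p = 0.0122). The Mycn call was lost without control library 3 (edgeR's adjusted p = 0.0531), and that of Foxd1 without control library 1 (0.0694), with DESeq2 (0.0630) and with total-count scaling (0.0881). Ccnd1, the most abundant of the genes not called, had a log2 fold change of -0.21 (SE 0.11).

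As Gli1, Ptch1 and Hhip are expressed by mesenchymal cells of the nerve, markers of its cell types are given beside them. Markers of the perineurium, the sheath whose formation requires Dhh, numbered 12, of which 11 were tested, 6 were lower and 1 was higher. Itgb4, which Schwann cells express too, changed most and gave 813, 926 and 952 normalised counts in control and 286, 234 and 310.4 in Rnf40ΔSC libraries (log2 fold change -1.69, SE 0.10, edgeR's adjusted p = 4.77e-16). Lower levels were also found for Msln (log2 fold change -1.22, SE 0.21), Ntng1 (-0.78, SE 0.18), Mpzl2 (-0.74, SE 0.17), the glucose transporter Slc2a1 (-0.66, SE 0.11) and the tight junction gene Cldn1 (-0.28, SE 0.10). Cldn1 lost its call under 6 of 12 alternatives. Tjp1, the most abundant gene of the list over all 6 libraries though below Itgb4 in control nerves, was higher (log2 fold change 0.47, SE 0.09, edgeR's adjusted p = 1.22e-04). Summed over the 12 genes, the level was 1555, 1754 and 1659 TMM CPM in control and 1403, 1207 and 1294 TMM CPM in Rnf40ΔSC libraries. Itgb4 is part of this sum, and on the same scale its fall was nearly as large as that of the sum. Sums without Itgb4 were not formed. Per 1e6 counted reads without TMM, a scale added after the values were seen, the sums were 1433, 1558 and 1505 in control and 1496, 1323 and 1430.0 in Rnf40ΔSC libraries, and the genotypes overlapped.

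Fibroblast markers did not move as a block. The 7 markers of endoneurial fibroblasts summed to 909 ± 5.24 TMM CPM in control and 965 ± 57.6 TMM CPM in Rnf40ΔSC nerves (SD, n = 3), and the most abundant of them, Smoc2, had a log2 fold change of -0.01 (SE 0.08). Cxcl14 was the exception, with 12.7, 13.1 and 12.1 normalised counts in control and 121, 187 and 139.6 in Rnf40ΔSC libraries (log2 fold change 3.54, SE 0.22, edgeR's adjusted p = 1.12e-15). On the TMM CPM scale its rise was larger than that of the endoneurial sum, which includes it. Sums without Cxcl14 were not formed. Wif1, a defining marker of endoneurial fibroblasts, had no more than 1 read in any library. Of 8 epineurial markers 7 were tested and 3 were lower, namely Pi16 (log2 fold change -0.90, SE 0.13), Dpt (-0.70, SE 0.12) and Clec3b (-0.66, SE 0.15), and the sum of all 8 was 749 ± 45.8 TMM CPM in control and 609.6 ± 36.9 TMM CPM in Rnf40ΔSC nerves (SD, n = 3; most abundant gene Adamts5). Of 6 general fibroblast genes, 5 were lower, with sums of 54665 ± 2297 and 39112 ± 1121 TMM CPM (SD, n = 3), in which Col3a1 predominated. With total-count scaling, 2 of these 6 were called lower and 1 higher. The same scaling gave 3 higher endoneurial markers, and 3 lower epineurial markers and 1 higher. Without TMM, the endoneurial sums were higher in every Rnf40ΔSC library (1.28 times the control mean), the epineurial sums overlapped (0.979) and the general fibroblast sums stayed lower without overlap (0.860). Set against Pdgfra, a marker of fibroblasts, reads of Gli1 gave ratios of 0.292, 0.233 and 0.232 in control and 0.188, 0.219 and 0.219 in Rnf40ΔSC libraries, so that the genotypes came close to each other without overlap.

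Of 10 Schwann lineage markers, 8 were lower and 2 higher. Endothelial (4 of 8 tested, most abundant Cdh5) and macrophage markers (6 of 8 tested, most abundant Csf1r) were lower, with sums at 0.718 and 0.683 of control in TMM CPM. Without TMM these were 0.864, with overlap of the genotypes, and 0.821, without overlap. With total-count scaling, 1 endothelial and 2 macrophage genes were still called lower. The part that these cell types take in the values of Gli1 was not tested.

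**Figure D5:**
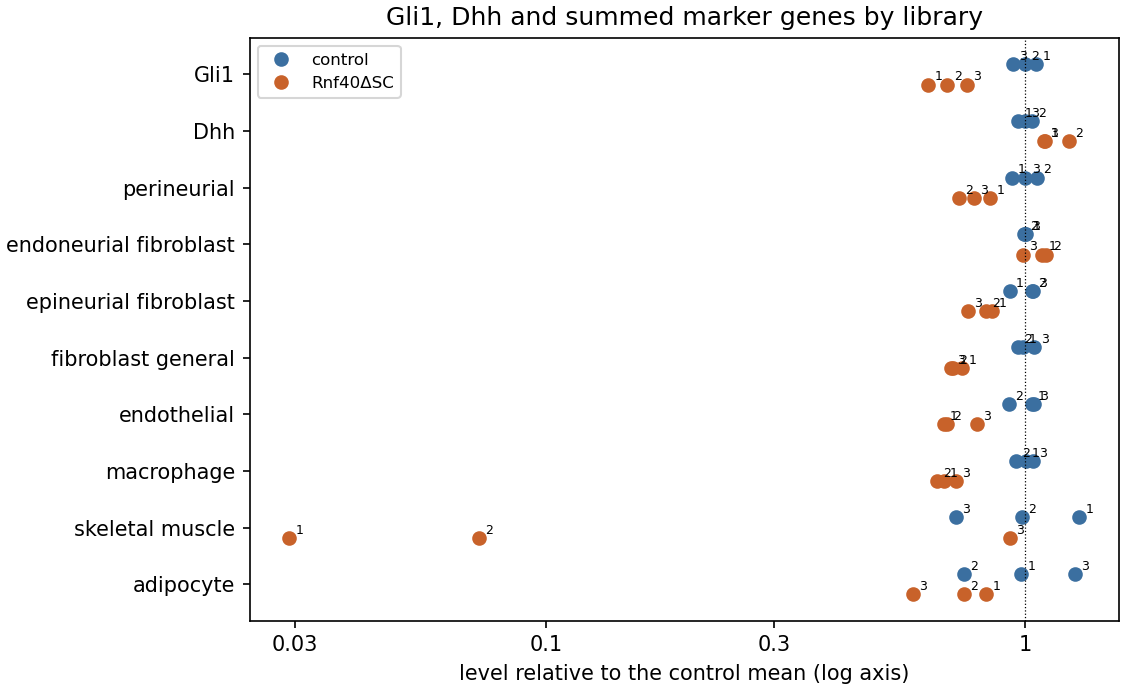
Normalised counts of Gli1 and Dhh and summed TMM CPM of 8 marker lists in every library, numbered 1 to 3 for each genotype and divided by the mean of the 3 control libraries (logarithmic horizontal axis). Rnf40ΔSC libraries 1 and 2 are far to the left for skeletal muscle and Rnf40ΔSC library 3 is not, whereas the 3 libraries lie together for Gli1 and Dhh.

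The libraries also differed in adhering tissue. Skeletal muscle genes, with Myh4 as the most abundant over all 6 libraries, summed to 4551, 3455 and 2516 TMM CPM in control libraries and to 102, 254 and 3267 TMM CPM in Rnf40ΔSC libraries 1 to 3. Rnf40ΔSC library 3 therefore resembled the controls, whereas libraries 1 and 2 held little muscle. Fat cell markers (most abundant Fabp4) summed to 1003, 761 and 1297 TMM CPM in control and 848, 761 and 595 TMM CPM in Rnf40ΔSC libraries, and 2 of 5 were lower. Within each genotype the libraries had the same order for Gli1 as for the muscle genes, with 113, 107 and 101 normalised counts of Gli1 in control and 67.1, 73.5 and 80.6 in Rnf40ΔSC libraries 1 to 3. Without Rnf40ΔSC library 3, edgeR called Gli1, Smo and Sufu as before; without Rnf40ΔSC library 1, edgeR called none of the members (2 at an unadjusted p of at most 0.05). Without Rnf40ΔSC library 3, 9 of 10 muscle genes were called lower, so that muscle and genotype cannot be told apart in that fit. The part of muscle tissue in the members' values was not tested.

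Patterns most like those of Dhh and Gli1 were sought among 9335 other genes with at least 20 normalised counts on average, by the root-mean-square difference of log2 TMM CPM centred on the mean of each gene over the 6 libraries. Closest to Dhh were Ergic2 (0.0233), Mcl1 (0.0265), Arhgap12 (0.0269), Thumpd3 (0.0280) and Golga3 (0.0314), with log2 fold changes between 0.17 and 0.24. Closest to Gli1 were Ugp2 (0.0305), Eef1a1 (0.0335), Anxa6 (0.0350), Mtss1l (0.0429) and Gucy1a3 (0.0450), whose log2 fold changes ranged from -0.57 to -0.51. None of these 10 genes belongs to the lists of the pathway.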

How the data were processed

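Total RNA of sciatic nerves was sequenced for 3 control and 3 Rnf40ΔSC libraries, grouped and numbered by the sample labels. Per the study's methods, the authors aligned reads to mm9 with TopHat 2.1.1 and counted uniquely placed reads per gene using HTSeq 0.9.1. The deposited values are raw counts per gene symbol, 1 table per library, without rows that name no gene (0 of 24015). The submitters' processing notes also name Bowtie2 2.1.0 and mm10 without a role. The labels name the NEB Next Ultra kit and the methods a directional NEXTFLEX kit, and the annotation and strand setting of the counting are not given in the sources used here.

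The test was edgeR 4.0.16 under R 4.3.3 (filterByExpr, TMM, a robust quasi-likelihood model holding genotype alone, Benjamini-Hochberg adjustment over all 11371 genes). Normalised counts are counts divided by the TMM effective library size and multiplied by the mean of these sizes. RPKM and mm9 coordinates used GENCODE vM1 (NCBIM37), and promoters are from RefSeq (GRCm38.p6). Alternatives were RLE and total-count scaling, DESeq2 1.42.0 without shrinkage, all genes kept whatever their counts, only genes with 10 or more counts in all libraries, a replicate block, omission of each library in turn, and the limits of the study. The method was tested on simulated counts. Libraries of the same genotype varied beyond sampling noise (chi-square per degree of freedom 1.82 to 5.62).

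The members and lists were chosen with earlier results of these data known. Genes named are all members and Rnf40; of the other pathway lists, genes called and the most abundant of the rest; of the marker lists other than the Schwann lineage, the most abundant of each and, for perineurial, endoneurial and epineurial markers, those called; and the 5 genes most like Dhh and Gli1. Not every gene of the lists is described. The most abundant gene is the one with the highest mean over all 6 libraries. Sox10, Pdgfra, Egr2 and Foxd3 were named after their values were seen, as were the markers singled out for absence.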

Additional observations from a re-analysis of the deposited data

How the results depend on the processing

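Under all 12 alternatives, the log2 fold changes of Dhh, Ptch1, Smo, Gli1, Gli2, Gli3 and Sufu kept their direction. Total-count scaling gave 0.46 for Dhh and 0.78 for Gli3, both then called, and -0.058 for Smo and -0.25 for Gli1, no longer called; it shifts the median of all genes by the same amount. With DESeq2, Smo (-0.32) and Sufu (0.46) lost their calls, so that 1 member was called in place of 3. The numbers did not pair the libraries, as same-numbered libraries correlated between -0.09 and -0.02 after removal of the group means, and with the replicate block 2 members were called, Sufu having a log2 fold change of 0.45, without a change of any other member's call. On omission of single libraries, between 0 and 3 members were called, and log2 fold changes ran from -0.40 to -0.21 for Smo, -0.59 to -0.44 for Gli1, 0.33 to 0.57 for Sufu and -0.20 to 0.72 for Hhip. Hhip reversed without control library 2 (-0.20), control library 3 (-0.13) and Rnf40ΔSC library 2 (-0.0082), at 9 to 23 reads per library. By the limits of the study, edgeR called 0 members, with 3 at an unadjusted p of at most 0.05, and 998 genes in the whole table in place of 3597. The cause of these differences was not tested beyond what each alternative changes by construction.

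Of the 30 other genes with alternatives, 17 were called under each of them and none reversed. Depth limits Shh, Hhip, Gli2 and Gli3, which had few reads per library, and intervals of the members not called include changes of considerable size. Pools of nerves and 3 libraries per genotype limit all comparisons, and replicate numbers in the labels name libraries only.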
